A study of Homo sapiens with 36 samples.

Results

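The response of gene expression to 8 h of E2F1 activation was compared between cells depleted of NFYB and control cells, as the difference of the responses: the change from 0 h to 8 h with NFYB siRNA minus the change from 0 h to 8 h with negative control siRNA, on the log2 scale of the array signal. The comparison covered 22215 of the 22277 probe sets of the arrays (a probe set is a group of short probes for one transcript; 62 control probe sets were left out) on 24 of the 36 arrays of the study. A positive difference means that, with NFYB siRNA, signal rose more or fell less over the 8 h than with control siRNA, and a negative one the opposite. It is the same quantity as the NFYB siRNA minus control siRNA difference at 8 h less that at 0 h.

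The cells were U2OS ER-HA-E2F1, a derivative of a human osteosarcoma line that carries E2F1 fused to an estrogen receptor domain and an HA tag, so that all groups share the fusion. They were transfected with 1 of 4 siRNAs (Dharmacon or Sigma negative control, Ambion or Dharmacon against NFYB), starved of serum from 18 h later for 24 h, and lysed at once (0 h) or after a further 4 or 8 h in serum-free medium with 80 nM 4-hydroxytamoxifen (OHT), the ligand of the fusion. Each of the 12 conditions has 3 biological replicates, so that an arm with its siRNAs pooled has 6 arrays at each time; the 12 arrays at 4 h entered the estimate of the spread and a comparison of their own. All arrays after 0 h had OHT, and effects of E2F1, of OHT itself and of the further hours of starvation cannot be told apart. The question was whether NFYB, which is itself induced in this system, takes part in the transcription that E2F1 sets in motion.

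E2F1 binds promoters of genes for DNA replication and cell division, and of several apoptosis genes, and activates them when it is not held by the retinoblastoma protein. NF-Y is a complex of the subunits NFYA, NFYB and NFYC that binds the CCAAT box found in many promoters, among them those of mitotic genes. NFYB and NFYC pair through histone-like folds, and NFYA, which contacts the CCAAT bases, joins that pair.

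The arrays had median signals of 100.5 to 119.7 after the scaling of the authors to a common trimmed mean, and each correlated with the other arrays of its condition at a mean r of 0.952 to 0.960 across probe sets. By percentile of mean signal, the 10 osteoblast and mesenchymal markers ran from the 21.9th (RUNX2) to the 99.5th (vimentin, VIM), with SPARC at the 98.2nd, COL1A1 at the 91.5th, SPP1 at the 79.2nd, ALPL at the 47.8th and IBSP at the 25.2nd. The 14 leukocyte markers reached at most the 58.5th (LCP1), with PTPRC at the 19.8th, and the 9 endothelial markers at most the 49.8th (ENG), with VWF at the 24.2nd. Of the 12 epithelial markers KRT18 lay at the 98.4th, KRT8 at the 84.3rd and EPCAM at the 67.4th, and CDH1 at the 18.4th. The summed signal of the epithelial markers ran from 8339 to 13914 in control siRNA cells at 0 h and from 6173 to 9089 at 8 h, and from 9925 to 16834 and 6522 to 11883 in NFYB siRNA cells. That of the leukocyte markers ran from 576 to 762 in control siRNA cells at 0 h and from 675 to 823 at 8 h, and from 706 to 917 and 652 to 913 in NFYB siRNA cells, and that of the 9 endothelial markers from 277 to 412 and 111 to 236 with control and from 319 to 390 and 159 to 292 with NFYB siRNA; their part in the results was not tested. The file holds no detection calls, and dimness was judged by mean signal alone.

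The siRNA target was lower throughout the time course. NFYB signal (probe set 218127_at, the brightest of 3) ran from 161 to 203 (median 191) at 0 h and 579 to 717 (median 654) at 8 h over the 6 control siRNA arrays of each time, and from 53.9 to 81.7 (median 66.8) at 0 h and 74.1 to 187 (median 117) at 8 h over the NFYB siRNA arrays. The arms did not overlap at either time. In control siRNA cells NFYB rose by 1.79 on the log2 scale (adjusted p = 2.77e-10), and in NFYB siRNA cells by 0.86 (adjusted p = 0.000224), so that the knockdown difference went from -1.50 at 0 h to -2.44 at 8 h. The difference of responses was -0.93 ± 0.27 (SE, adjusted p = 0.233) with limma and Benjamini-Hochberg adjustment over all 22215 probe sets, which did not pass the threshold of 0.05. It was called in 4 of 17 alternative settings and in 0 of 36 fits without 1 array. On log2 signal its value ran from -1.27 to -0.60 over the alternatives. By siRNA, the mean log2 rise was 1.79 and 1.80 with the Dharmacon and Sigma controls, 1.19 with the Ambion NFYB siRNA and 0.53 with the Dharmacon NFYB siRNA; the last 2 differed by -0.67 (adjusted p = 0.216). The partner subunit NFYA ran from 374 to 571 (median 478) in control siRNA cells and from 800.0 to 1053 (median 953) in NFYB siRNA cells at 0 h. It was therefore higher in every NFYB siRNA array, by 0.99 (adjusted p = 7.45e-10) before OHT and 0.94 (adjusted p = 3.8e-09) after 8 h of it, and its difference of responses was -0.05 ± 0.13 (SE, adjusted p = 0.967). NFYC was likewise higher in all 6 NFYB siRNA arrays than in any control array at both times, by 0.59 at 0 h and 0.72 at 8 h, with a difference of responses of 0.13 ± 0.13 (SE, adjusted p = 0.885). E2F1 itself gave -0.22 ± 0.19 (SE, adjusted p = 0.864). Whether its probe set reads the fusion, the endogenous transcript or both was not checked.

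**Figure D1:**
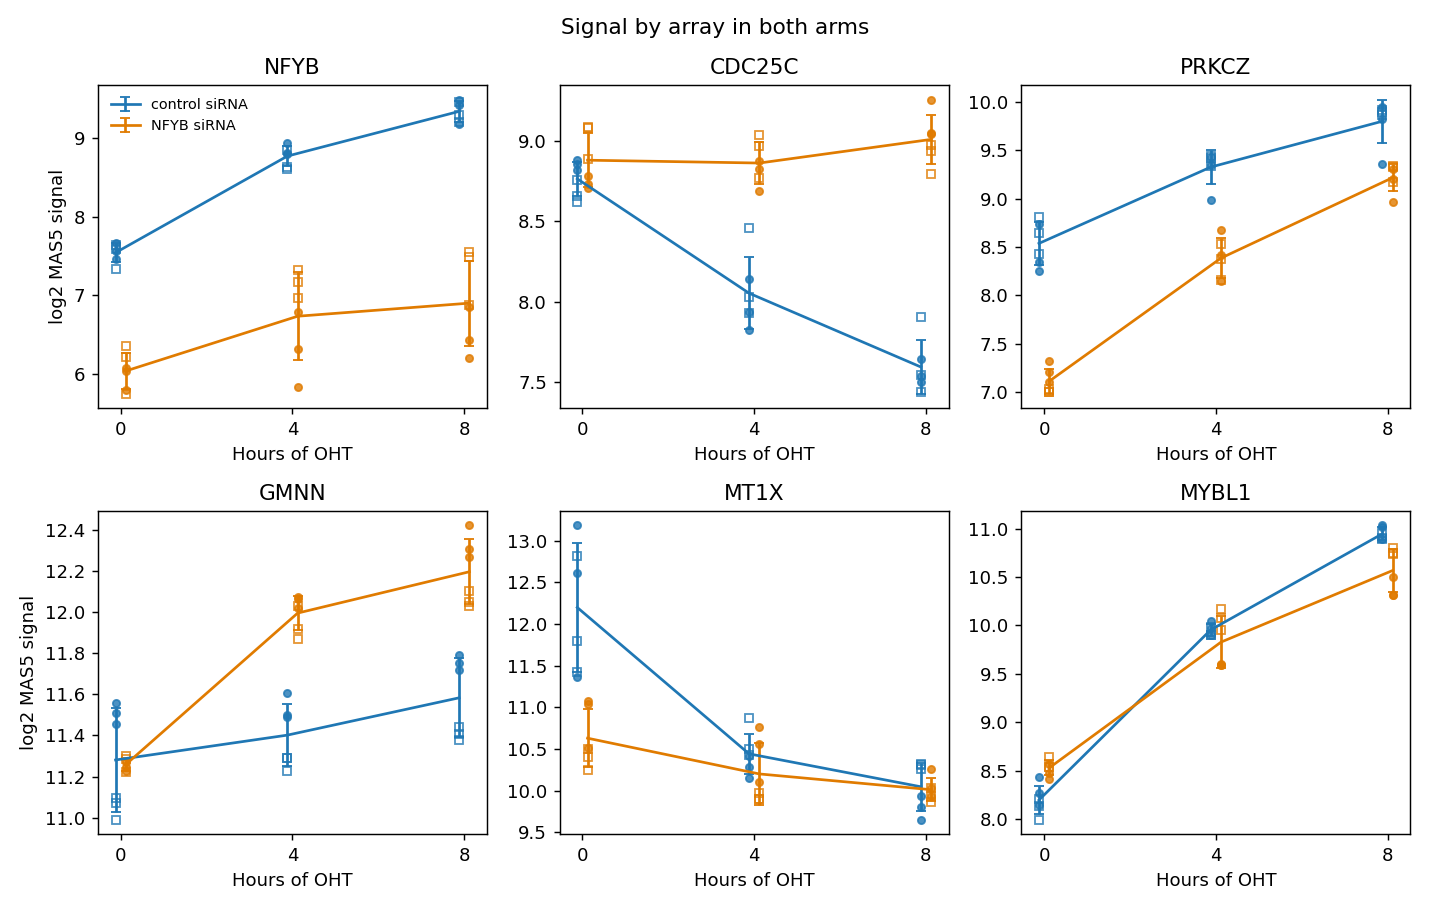
Log2 signal of NFYB, CDC25C, PRKCZ, GMNN, MT1X and MYBL1 (y axis) on each of the 36 arrays at 0, 4 and 8 h of OHT (x axis, hours), with control siRNA arrays in blue and NFYB siRNA arrays in orange. Filled circles are the Dharmacon siRNA of each arm and open squares the Sigma control or the Ambion NFYB siRNA; lines connect group means, each of 6 arrays, and error bars show the SD. CDC25C on its brightest probe set fell with control siRNA only, PRKCZ rose from a lower start with NFYB siRNA, and the MT1X arms met at 8 h after starting 1.57 apart on the log2 scale.

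The responses of both arms were alike over most of the array. In control siRNA cells 11090 probe sets (49.9%) changed over 8 h at an adjusted p under 0.05, and in NFYB siRNA cells 10637 (47.9%). Across the 22215 probe sets the log2 responses of the arms, which share no arrays, correlated at Pearson's r = 0.823, and at r = 0.968 over the 13329 probe sets in the upper 60% by signal; genes are not independent replicates, and no test is attached to these values. Among the 2358 probe sets that rose at least 2-fold in control siRNA cells, the median rise was 1.64 there and 1.46 with NFYB siRNA, but among the 2133 chosen in the same way in NFYB siRNA cells it was 1.61 with NFYB siRNA and 1.60 with control siRNA. For the decreases the corresponding medians were -1.38 and -1.23 when 2075 were chosen by the control arm, and -1.38 with NFYB siRNA and -1.29 with control siRNA when 2013 were chosen by the NFYB arm. The arm that chose the probe sets thus had the greater median each time.

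Against this background the difference of the 8 h responses was called for 45 probe sets, 0.203% of those tested, by limma with Benjamini-Hochberg adjustment. Of these, 38 (0.171%) were higher with NFYB siRNA and 7 (0.0315%) lower. The split moved with the fit: it was 174 higher and 116 lower with each siRNA and time as a group of its own, 131 and 104 with the Dharmacon NFYB siRNA alone, and 35 and 30 against the Dharmacon control alone. At 1 probe set per gene and an unadjusted p under 0.05, 440 of 11963 genes were higher and 449 lower. The 45 probe sets name 40 genes, 33 higher and 7 lower, through 41 probe sets; a pair of probe sets names the ANKHD1 region, where genes overlap, and another pair names no gene. An unadjusted p under 0.05 was reached by 1572 probe sets (7.08%). For 25 of the 45 the increase over 8 h was greater with NFYB siRNA, for 6 it was smaller, for 4 a decrease was smaller with NFYB siRNA, and for 10 the responses had opposite signs. Just inside the threshold lay CDC25C on its second probe set, ADCY3 and ESPL1 (adjusted p = 0.0462, 0.0462 and 0.0485), and just outside it MET (-0.84, adjusted p = 0.0546) and PITPNC1 (-0.66, adjusted p = 0.0547). At 4 h of OHT, which shares the 0 h arrays, the corresponding difference was called for 3 probe sets (0.0135%), those of MMP15 (1.91), POGLUT2 (0.70) and SLC66A2 (-0.61).

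**Figure D2:**
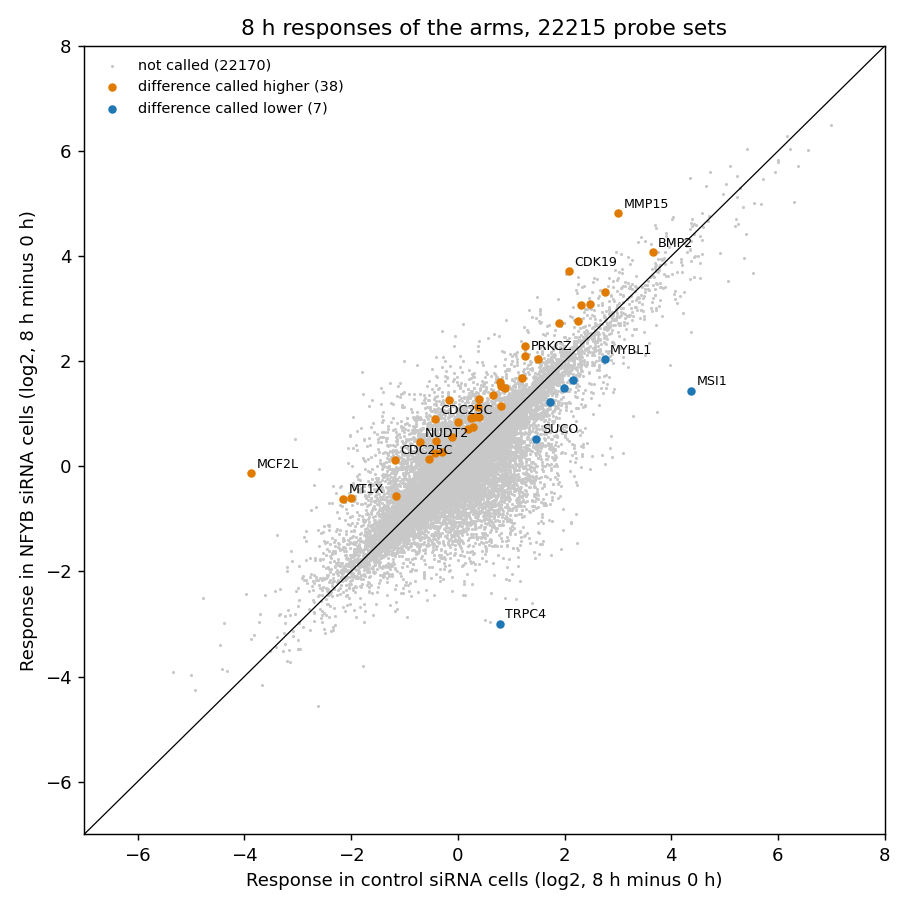
Log2 response in NFYB siRNA cells (y axis) against that in control siRNA cells (x axis) for 22215 probe sets, each the mean of 6 arrays at 8 h minus the mean of 6 arrays at 0 h. Grey points were not called, 38 orange points lie above the line of equal responses and 7 blue points below it, among them CDC25C at -1.17 and 0.13 and MSI1 at 4.37 and 1.44.

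The promoters of 3 genes of the higher group and 1 of the lower group are printed because NF-Y binds CCAAT, as examples of how the box is placed. These genes were not those with the greatest differences. CDK2AP2 held more boxes in a window than any other called gene with a promoter window, so the examples do not stand for their groups. Each runs from 250 bases before to 50 bases after a transcription start of the RefSeq annotation (GRCh38.p14), and is given in the direction of the gene, 5′ to 3′, with CCAAT, or ATTGG where the box lies on the other strand, in capitals. For genes with several starts the window with the most boxes was chosen.
CDC25C, chr5:138331828-138332127, minus strand: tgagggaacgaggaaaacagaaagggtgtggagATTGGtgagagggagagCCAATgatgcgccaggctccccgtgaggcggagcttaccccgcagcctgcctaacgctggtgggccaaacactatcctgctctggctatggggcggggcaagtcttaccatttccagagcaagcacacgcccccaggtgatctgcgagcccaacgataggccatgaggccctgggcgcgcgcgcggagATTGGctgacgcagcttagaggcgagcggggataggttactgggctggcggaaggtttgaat
PRKCZ, chr1:2050161-2050460, plus strand: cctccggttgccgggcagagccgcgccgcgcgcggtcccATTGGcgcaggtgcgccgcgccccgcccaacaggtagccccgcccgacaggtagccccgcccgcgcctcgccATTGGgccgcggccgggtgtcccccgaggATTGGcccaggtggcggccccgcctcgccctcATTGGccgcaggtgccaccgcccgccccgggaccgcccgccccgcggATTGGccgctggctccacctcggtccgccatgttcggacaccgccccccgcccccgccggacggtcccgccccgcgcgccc
CDK2AP2, chr11:67508113-67508412, minus strand: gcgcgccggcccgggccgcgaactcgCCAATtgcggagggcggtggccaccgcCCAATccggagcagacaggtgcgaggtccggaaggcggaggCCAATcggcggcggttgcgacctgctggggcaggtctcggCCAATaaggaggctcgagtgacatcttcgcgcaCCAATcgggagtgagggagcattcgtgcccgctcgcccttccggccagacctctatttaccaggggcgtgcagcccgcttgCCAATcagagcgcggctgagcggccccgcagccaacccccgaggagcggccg
BAG1, chr9:33264659-33264958, minus strand: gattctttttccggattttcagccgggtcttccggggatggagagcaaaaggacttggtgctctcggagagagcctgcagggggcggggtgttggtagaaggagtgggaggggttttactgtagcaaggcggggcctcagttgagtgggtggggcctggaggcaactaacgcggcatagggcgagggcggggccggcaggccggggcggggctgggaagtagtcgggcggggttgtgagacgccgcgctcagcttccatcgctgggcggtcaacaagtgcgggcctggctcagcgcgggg
The CDC25C window held 3 boxes, that of PRKCZ 5, that of CDK2AP2 6 and that of BAG1 0. CCAAT was searched on both strands in all windows of the table. Of the 33 genes called higher, 28 had a promoter in the table, and 26 of these (92.9%) held CCAAT in at least 1 window, against 4227 of 9563 genes (44.2%) of the arrays and 39.7% of all genes of the table. The called genes had more annotated starts each, and counted by window the shares were 58.8% (30 of 51 windows) against 35.1% of windows of genes on the arrays. The higher genes without the box in any window were SLCO4C1 and SMAD7. Of the 7 genes called lower, 4 had a promoter in the table and 1 of these, SUCO, held CCAAT. TTTNGCGC, an E2F-like motif, was found in 3 of the 28 higher genes (10.7%; GMNN, SLC38A12 and SLCO4C1) against 3.4% of genes of the arrays, and TTTGAA, the motif of the cell cycle homology region, in 5 (17.9%) against 15.6%; none of the 3 motifs contains another. The counting over all starts was chosen after a first tally over the first-listed start had been seen, and a match of letters is a description and not a bound site.

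CDC25C, the phosphatase that activates CDK1 at entry into mitosis, had the smallest p of the comparison. Its signal (205167_s_at) ran from 394 to 472 (median 443) at 0 h and 174 to 240.0 (median 186) at 8 h over the 6 control siRNA arrays of each time, and from 418 to 544 (median 458) at 0 h and 444 to 613 (median 516) at 8 h over the NFYB siRNA arrays. The arms overlapped at 0 h and not at 8 h: the lowest NFYB siRNA array at 8 h was above the highest control array. CDC25C fell by 1.17 on the log2 scale in control siRNA cells (adjusted p = 5.31e-13) and stood at 0.13 in NFYB siRNA cells (adjusted p = 0.302), a difference of 1.30 ± 0.14 (SE, adjusted p = 5.82e-07) or 2.46-fold. The knockdown difference was 0.12 without OHT (adjusted p = 0.637) and 1.42 after 8 h (adjusted p = 2.31e-12). At 4 h the difference of responses was 0.69. By siRNA, mean signal at 8 h was 189 ± 9.88 and 200.0 ± 35.2 with the Dharmacon and Sigma controls (SD, n = 3), and 479 ± 31.4 and 558 ± 47.6 with the Ambion and Dharmacon NFYB siRNAs. A dimmer probe set of CDC25C (217010_s_at) was also called, at 1.32 ± 0.30 (SE, adjusted p = 0.0462), and the dimmest gave 1.29 (adjusted p = 0.694). On these the arms moved in another way: the response was -0.43 (adjusted p = 0.0964) and 0.19 (adjusted p = 0.76) in control siRNA cells, and 0.89 (adjusted p = 0.000509) and 1.48 (adjusted p = 0.00485) in NFYB siRNA cells. The fall with control siRNA was thus called on the brightest probe set alone, and a rise with NFYB siRNA on the other 2. On 217010_s_at the mean response was 0.27 with the Dharmacon and -1.12 with the Sigma control. Its difference was 0.62 against the Dharmacon control and 2.02 against the Sigma control. The call on 217010_s_at held in 9 of 17 alternative settings.

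Around CDC25C, the G2/M and mitosis list had 2 of 48 measured genes called higher and none lower, beside 28 higher and 7 lower of 11963 genes at 1 probe set per gene, the brightest; its median difference was 0.02 against -0.01 over all genes. The other called member was ESPL1, or separase, which cleaves cohesin at anaphase. ESPL1 signal ran from 866 to 1106 (median 1018) at 0 h and 973 to 1351 (median 1142) at 8 h over the 6 control siRNA arrays of each time, and from 552 to 765 (median 636) at 0 h and 956 to 1093 (median 1039) at 8 h over the NFYB siRNA arrays. It was lower in all 6 NFYB siRNA arrays than in any control array at 0 h (-0.66, adjusted p = 1.07e-06) and overlapped at 8 h (-0.15, adjusted p = 0.376), for a difference of responses of 0.51 ± 0.12 (SE, adjusted p = 0.0485). Its other probe set gave 0.25 (adjusted p = 0.722). At an unadjusted p under 0.05, 10 members were higher and 4 lower, beside 440 and 449 of 11963 genes, and the values went both ways: PLK1, a mitotic kinase, was at 0.39 (adjusted p = 0.229) and CCNB1, the cyclin B1 that CDK1 needs, at -0.37 (adjusted p = 0.211). CDC25C is among the cell cycle genes that the study names as controlled by NF-Y. The others, CCNB2, CCNA2, CDK1 and CDC25A, were at -0.13, -0.12, -0.17 and -0.20, with adjusted p from 0.827 to 0.957. CCNB2, cyclin B2, was lower in every NFYB siRNA array than in every control array before OHT (-0.31, adjusted p = 0.00615) and at 8 h (-0.44, adjusted p = 6.9e-05), and fell in both arms, by 0.51 with control and by 0.64 with NFYB siRNA.

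Among DNA replication and G1/S genes, 2 of 52 were called, both higher, beside 28 higher and 7 lower of 11963 genes. The median of the list was -0.01. At an unadjusted p under 0.05, 4 members were higher and 5 lower, beside 440 and 449 of 11963 genes. The replication gene RFC2 was at -0.47 (adjusted p = 0.377). GMNN encodes geminin, the inhibitor of the licensing factor CDT1. GMNN signal ran from 2035 to 3013 (median 2499.7) at 0 h and 2660.0 to 3548 (median 3078) at 8 h over the 6 control siRNA arrays of each time, and from 2389 to 2521 (median 2451) at 0 h and 4176 to 5480.4 (median 4663) at 8 h over the NFYB siRNA arrays. The arms overlapped before OHT and separated by 8 h, with a rise of 0.30 in control siRNA cells (adjusted p = 0.00542), of 0.94 in NFYB siRNA cells (adjusted p = 3.77e-11) and a difference of 0.63 ± 0.13 (SE, adjusted p = 0.022). By control siRNA, mean GMNN signal at 0 h was 2912 ± 102 with the Dharmacon and 2127 ± 81.3 with the Sigma control (SD, n = 3). RRM2, the small subunit of ribonucleotide reductase, ran from 5052 to 6539 (median 5689.8) at 0 h and 14749 to 17758 (median 16022) at 8 h over the 6 control siRNA arrays of each time, and from 3509 to 4302 (median 3871) at 0 h and 12992 to 18773 (median 17168) at 8 h over the NFYB siRNA arrays. It started lower with NFYB siRNA (-0.55, adjusted p = 2.77e-05) and the arms overlapped at 8 h (-0.00, adjusted p = 0.992), giving 0.55 ± 0.12 (SE, adjusted p = 0.0258). A second probe set of RRM2 gave 0.31 (adjusted p = 0.75). CDK2AP2, a CDK2-associated protein, started at 568 to 713 (median 601) with control and 276 to 399 (median 338) with NFYB siRNA and reached 985 to 1231 (median 1089) and 941 to 995 (median 975) at 8 h. Its rise was 0.82 with control and 1.52 with NFYB siRNA, a difference of 0.70 ± 0.12 (SE, adjusted p = 0.00705). No member of the E2F and pocket protein family was called (0 of 12 with limma, 0 also at an unadjusted p under 0.05), and its median was -0.14.

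PRKCZ, atypical protein kinase C zeta, was the 1 called of 15 in its family list, beside 28 higher and 7 lower of 11963 genes. Its signal ran from 305 to 448 (median 372) at 0 h and 654 to 987 (median 943) at 8 h over the 6 control siRNA arrays of each time, and from 128 to 159.8 (median 134) at 0 h and 499.5 to 645 (median 611) at 8 h over the NFYB siRNA arrays. The NFYB siRNA arrays lay below all control arrays at both times. PRKCZ rose in both arms, by 1.26 with control siRNA (adjusted p = 1.11e-12) and by 2.11 with NFYB siRNA (adjusted p = 6.03e-19), a difference of 0.84 ± 0.15 (SE, adjusted p = 0.0098). The deficit with NFYB siRNA thus went from -1.42 without OHT (adjusted p = 1.53e-11) to -0.58 after 8 h (adjusted p = 0.000634). On the linear scale the order is the reverse: mean PRKCZ signal rose by 525 units with control siRNA and by 459 with NFYB siRNA. The same reversal on linear signal was found for CDK19 (128 and 109.8), NSG1 (1615 and 1269), SFRP1 on the called probe set (135 and 121) and SLCO4C1 (586 and 463), all of which started lower with NFYB siRNA and remained lower in mean at 8 h. For these 5 genes the fold response was greater and the gain in signal smaller with NFYB siRNA.

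SFRP1, a secreted antagonist of Wnt proteins, had 3 probe sets. The called one (202036_s_at) ran from 157 to 227 (median 183) at 0 h and 258 to 363 (median 325) at 8 h over the 6 control siRNA arrays of each time, and from 44.8 to 76.0 (median 57.6) at 0 h and 155 to 227 (median 176) at 8 h over the NFYB siRNA arrays, without overlap of the arms at either time, and gave 0.82 ± 0.18 (SE, adjusted p = 0.0415). The brightest (202037_s_at) gave 0.32 (adjusted p = 0.706) and the dimmest -0.13 (adjusted p = 0.956), so the call rests on 1 of the 3. SLCO4C1, an organic anion transporter, started at 374 to 469 (median 407) with control and 80.4 to 174 (median 123) with NFYB siRNA, and its difference was 1.01 ± 0.21 (SE, adjusted p = 0.0221). NSG1, a vesicle protein of neurons, gave 0.56 ± 0.12 (SE, adjusted p = 0.0281) on a probe set that may also bind related transcripts, but its other 2 probe sets gave -0.04 (adjusted p = 0.987) and -0.01 (adjusted p = 0.997). Of the remaining genes the study names, FOLH1 on the 1 probe set that names it alone was dim (the 20.9th percentile of mean signal) and gave -0.81 ± 0.69 (SE, adjusted p = 0.858). The study's FOLH1 probe sets name a second gene too and were not used here, so this value is not a measurement on them. SIVA1, a proapoptotic protein, was higher with NFYB siRNA before OHT (0.40, adjusted p = 0.00112) and after 8 h of it (0.56, adjusted p = 6.88e-06), with a difference of responses of 0.17 ± 0.11 (SE, adjusted p = 0.794). API5, an inhibitor of apoptosis, gave -0.22 ± 0.22 (SE, adjusted p = 0.884) on its brightest probe set. Its other probe sets gave 0.28, -0.16 and -0.06 (adjusted p from 0.848 to 0.981), the last on the probe set that the study lists. MALT1, a paracaspase, gave -0.24 ± 0.15 (SE, adjusted p = 0.773).

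Taken by the size of the difference between arms, the 45 probe sets fell into 28 for which the arms were closer at 8 h than at 0 h and 17 for which they were farther apart. The arms did not overlap in 24 of the 45 at 0 h, where 2.5% of all probe sets did not, and in 21 at 8 h, where 3.45% did not; these arrays chose the members, and nothing is read from the excess. NFYB knockdown before OHT was called for 796 probe sets (3.58%) and at 8 h for 1032 (4.65%). Of the 45, it was called at 0 h alone for 22, at 8 h alone for 15 and at both for 8. The 24 higher probe sets that began with a called deficit, where 2% of all probe sets did, included those of MMP15, CDK19, WDR6, POGLUT2, TOR3A, MAF and both metallothioneins.

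MMP15, a membrane-bound matrix metalloproteinase, had the greatest difference of those that closed outside the lower 40% by mean signal. MMP15 signal ran from 18.4 to 44.9 (median 34.8) at 0 h and 195 to 283 (median 259) at 8 h over the 6 control siRNA arrays of each time, and from 4.77 to 10.7 (median 8.48) at 0 h and 169 to 359 (median 225) at 8 h over the NFYB siRNA arrays. All NFYB siRNA arrays were below all control arrays at 0 h and the arms overlapped at 8 h. The rise was 3.01 with control and 4.81 with NFYB siRNA, a difference of 1.81 ± 0.34 (SE, adjusted p = 0.0113). The NFYB siRNA arrays at 0 h were dim, and the value depends on that level: with an offset of 16 added before log2 it was 0.86 (adjusted p = 0.283), and on linear signal the mean rises were 215 units with control and 228 with NFYB siRNA. CDK19, the Mediator kinase, started at 22.6 to 60.7 (median 41.8) and 5.89 to 21.9 (median 8.02) and gave 1.63 ± 0.36 (SE, adjusted p = 0.0342), which became 0.68 (adjusted p = 0.437) with that offset; its 2 brighter probe sets gave 0.47 (adjusted p = 0.49) and 0.54 (adjusted p = 0.198). WDR6, a WD-repeat protein, had, with FAM111A, the next smallest adjusted p after CDC25C. It fell by 0.42 in control siRNA cells and rose by 0.26 in NFYB siRNA cells (adjusted p = 0.00243), from a start of 1568 to 1967 (median 1656) against 764 to 928 (median 839), and its difference was 0.68 ± 0.10 (SE, adjusted p = 0.000775). Closing by 8 h was also measured for the transcription factor GTF2IRD1 (0.69), the torsin TOR3A (0.71), the glucosyltransferase POGLUT2 (0.67), and the basic leucine zipper factors MAF (0.60) and CEBPD (0.50), all with a deficit at 0 h of -0.31 to -0.95. KAT6B, a histone acetyltransferase, fell by 1.16 with control and by 0.57 with NFYB siRNA, a difference of 0.59 ± 0.13 (SE, adjusted p = 0.0393). A second probe set of CEBPD, dim, had the opposite sign, at -1.91 (adjusted p = 0.44).

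The probe sets for which the arms separated by 8 h were led by CDC25C and NUDT2. NUDT2, which hydrolyses diadenosine tetraphosphate, ran from 372 to 537 (median 397) at 0 h and 167 to 361 (median 299.7) at 8 h over the 6 control siRNA arrays of each time, and from 632 to 858 (median 747) at 0 h and 843 to 1396 (median 1007) at 8 h over the NFYB siRNA arrays. It was higher in all NFYB siRNA arrays at both times (0.82 at 0 h and 2.0 at 8 h), fell by 0.71 with control siRNA and rose by 0.47 with NFYB siRNA (adjusted p = 0.0238), a difference of 1.18 ± 0.24 (SE, adjusted p = 0.0221). FAM111A, a serine protease of the nucleus, ran from 2283 to 2795 (median 2513) with control and 3119 to 4203 (median 3694) with NFYB siRNA at 8 h, without overlap, after a difference of -0.22 at 0 h (adjusted p = 0.145), and gave 0.75 ± 0.11 (SE, adjusted p = 0.000775). POLR3K, a subunit of RNA polymerase III, was at -0.11 with control (adjusted p = 0.344) and rose by 0.55 with NFYB siRNA, a difference of 0.66 ± 0.12 (SE, adjusted p = 0.0113). OSBPL2, an oxysterol-binding-protein relative, and SLC38A12, a solute carrier, gave 0.61 and 0.90, and DOLPP1, a phosphatase of the dolichol cycle, 0.55. Of the 4 called probe sets that name no single gene, 3 separated by 8 h, with differences of 0.45, 0.47 and 0.76, and the fourth closed, at 0.53. The means of the arms crossed for KLHL24, a kelch-like protein, from -0.89 at 0 h to 0.53 at 8 h (adjusted p = 0.142). It gave 1.42 ± 0.29 (SE, adjusted p = 0.022), although its control arrays at 8 h spanned 212 to 537 (median 322) and overlapped with 418 to 567 (median 475).

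Genes of BMP signalling were called 3 times in a list of 31, all higher, beside 28 higher and 7 lower of 11963 genes. ID2, an inhibitor of basic helix-loop-helix factors and a common target of BMPs, ran from 456 to 660.0 (median 529.7) at 0 h and 479 to 652 (median 511) at 8 h over the 6 control siRNA arrays of each time, and from 347 to 567 (median 481) at 0 h and 674 to 966 (median 863) at 8 h over the NFYB siRNA arrays. The arms overlapped at 0 h and did not at 8 h. At 4 h ID2 ran from 767 to 950 (median 848) with control and 835 to 1437 (median 1040) with NFYB siRNA. In both arms these 4 h arrays lay above all 0 h arrays. From 0 h to 8 h the change of ID2 was 0.01 in control siRNA cells (adjusted p = 0.958). In NFYB siRNA cells it was 0.85 (adjusted p = 6.28e-08), a difference of 0.84 ± 0.16 (SE, adjusted p = 0.0135). The second ID2 probe set gave 0.87 (adjusted p = 0.0986). SMAD7, the inhibitory SMAD, ran from 459 to 587 (median 500.3) with control and 719.7 to 829.8 (median 737) with NFYB siRNA at 8 h, again without overlap, and gave 0.88 ± 0.18 (SE, adjusted p = 0.0218). At 4 h SMAD7 ran from 1151 to 1734 with control and 1432 to 2338 with NFYB siRNA. These 4 h arrays lay above the 0 h and 8 h arrays of their arm. The ligand BMP2 rose in both arms, by 3.65 with control and 4.07 with NFYB siRNA, a difference of 0.42 ± 0.09 (SE, adjusted p = 0.0248), which its other probe set did not show at 0.10 (adjusted p = 0.903). Of the other members ID1 was at 0.58 (adjusted p = 0.183), ID3 at 0.42 (adjusted p = 0.745) and the effector SMAD4 at -0.52 (adjusted p = 0.564). The median of the list was 0.07. At an unadjusted p under 0.05, 5 members were higher and 2 lower, beside 440 and 449 of 11963 genes.

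Metallothioneins, small proteins that bind zinc and copper and are induced by zinc, had the highest median of the lists that are not cell type markers. MT1X (204326_x_at) ran from 2631 to 9301 (median 4916) at 0 h and 806 to 1283 (median 1102) at 8 h over the 6 control siRNA arrays of each time, and from 1214 to 2155 (median 1454) at 0 h and 935 to 1229 (median 1014) at 8 h over the NFYB siRNA arrays. All NFYB siRNA arrays were below all control arrays at 0 h, and the arms overlapped at 8 h. MT1X fell by 2.15 with control and by 0.62 with NFYB siRNA, a difference of 1.53 ± 0.31 (SE, adjusted p = 0.0218), and its brighter probe set gave 0.90 (adjusted p = 0.254). MT1E fell by 2.0 and by 0.60, a difference of 1.40 ± 0.29 (SE, adjusted p = 0.0248). Over the 16 measured genes of the metallothionein and zinc transport list, 1 (MT1E) was called higher on the brightest probe set, 8 were higher and 1 lower at an unadjusted p under 0.05, and the median was 0.49 with 11 of 16 positive. Over all 11963 genes 440 were higher and 449 lower at that p, 5844 were positive, and 28 were called higher and 7 lower. The median of the list was 0.49 with quantile normalization, but 0.28 with an offset of 16. Over the 15 members in the upper 60% of probe sets it was 0.22. The metallothioneins MT1F (1.29, adjusted p = 0.0986), MT1G (1.19, adjusted p = 0.132) and MT2A (0.76, adjusted p = 0.187) and the zinc exporter SLC30A1 (2.12, adjusted p = 0.211) had values of the same sign. The transcripts of the metallothioneins are near-identical, and their probe sets may each read several of them, so the metallothionein values are not separate measurements.

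Apoptosis genes contributed a call in each direction. BCL2L11, which encodes the proapoptotic BH3-only protein BIM, ran from 55.4 to 99.3 (median 80.6) at 0 h and 262 to 362 (median 276) at 8 h over the 6 control siRNA arrays of each time, and from 32.7 to 55.6 (median 42.6) at 0 h and 262 to 329 (median 279) at 8 h over the NFYB siRNA arrays on the called probe set. It rose by 1.90 with control and 2.73 with NFYB siRNA, with a difference of 0.82 ± 0.19 (SE, adjusted p = 0.0444). The brighter probe set gave 0.47 (adjusted p = 0.694), so BCL2L11 was not counted in the list, where 0 of 31 proapoptotic genes were called by limma (1 higher and 1 lower at an unadjusted p under 0.05; median -0.03). Of 24 anti-apoptotic genes 1 was called, BAG1, a co-chaperone that binds BCL2, and it was lower, beside 28 higher and 7 lower of 11963. BAG1 (211475_s_at) ran from 461 to 643 (median 553) at 0 h and 1714 to 1975 (median 1804) at 8 h over the 6 control siRNA arrays of each time, and from 686 to 913 (median 806) at 0 h and 1731 to 1973 (median 1808) at 8 h over the NFYB siRNA arrays. It started higher in all NFYB siRNA arrays (0.52, adjusted p = 2.27e-05) and the arms coincided at 8 h (0.02, adjusted p = 0.938), giving -0.50 ± 0.11 (SE, adjusted p = 0.0325). The other BAG1 probe set, of similar signal percentile, gave 0.01 (adjusted p = 0.997).

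**Figure D3:**
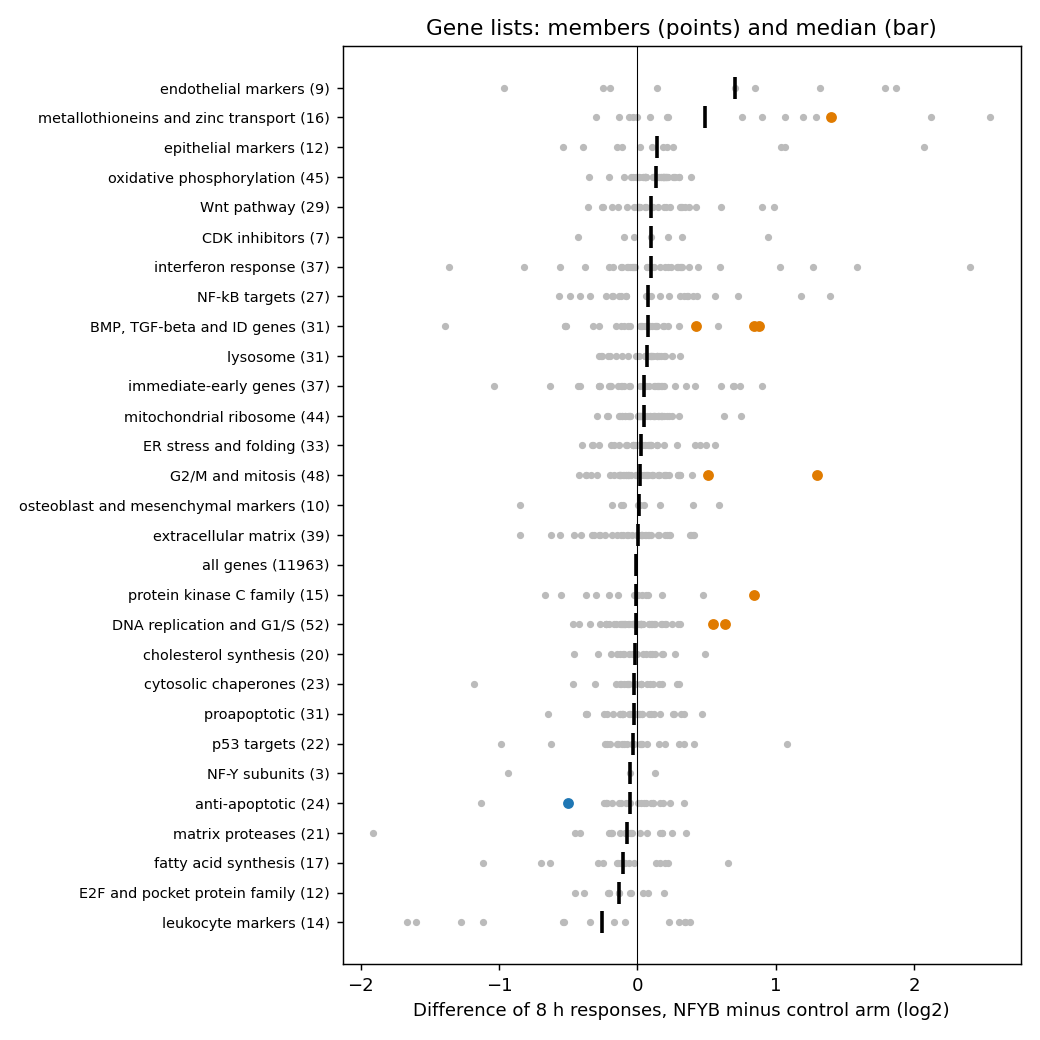
Difference of the 8 h responses (x axis, log2, NFYB minus control arm) of each measured gene of 28 lists (points; number measured in brackets) with the median of each list (black bar), ordered by median, and the median of all 11963 genes. Orange and blue points were called higher and lower; the 16 metallothionein and zinc transport genes have a median of 0.49 and the 9 endothelial markers, which are dim, of 0.70.

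In the remaining lists no gene was called by limma: p53 targets, CDK inhibitors, immediate-early genes, NF-kB targets, interferon response, endoplasmic reticulum stress, cholesterol and fatty acid synthesis, extracellular matrix, matrix proteases, the Wnt pathway (on its brightest probe sets), oxidative phosphorylation, the mitochondrial ribosome, chaperones, lysosome and the 4 marker lists. The matrix protease list did not hold MMP15, which was called. Oxidative phosphorylation, the respiratory chain and ATP synthase of mitochondria, had a median of 0.14 with 38 of 45 members positive and 10 higher and 1 lower at an unadjusted p under 0.05, beside 5844 positive, 440 higher and 449 lower of 11963 genes. Its first member, the complex I subunit NDUFA1, was at 0.39 (adjusted p = 0.283). The mitochondrial ribosomal proteins MRPL12 (0.75, adjusted p = 0.095) and MRPL18 (0.63, adjusted p = 0.178) were the leading members of their list, which had a median of 0.04. The CDK inhibitor CDKN1C was at 0.94 (adjusted p = 0.178). In the p53 list TP53I11 was at 1.08 and MDM2, the ubiquitin ligase of p53, at -0.99, with adjusted p of 0.41 and 0.53.

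The 7 genes called lower rose less, or fell, with NFYB siRNA. MYBL1, the A-MYB transcription factor, ran from 255 to 346 (median 289) at 0 h and 1895 to 2096 (median 1949) at 8 h over the 6 control siRNA arrays of each time, and from 341 to 398 (median 372) at 0 h and 1269 to 1778 (median 1582) at 8 h over the NFYB siRNA arrays. The NFYB siRNA arrays were higher in mean at 0 h (0.33, adjusted p = 0.0345) and all below the control arrays at 8 h (-0.38, adjusted p = 0.0117), for a difference of -0.71 ± 0.13 (SE, adjusted p = 0.0109). SUCO, a membrane protein linked to bone formation, rose by 1.47 with control and by 0.53 with NFYB siRNA, to 1618 to 2131 (median 1744) against 813 to 1469 (median 1001) at 8 h without overlap, a difference of -0.95 ± 0.20 (SE, adjusted p = 0.0221). SLC66A2 and the adenylate cyclase ADCY3 gave -0.50 ± 0.09 (SE, adjusted p = 0.0109) and -0.49 ± 0.11 (SE, adjusted p = 0.0462). SLC66A2 started higher with NFYB siRNA (0.60) and the arms were within 0.10 at 8 h, whereas ADCY3 ended lower (-0.27, adjusted p = 0.0361).

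The greatest differences in size came from dim probe sets. MCF2L, a guanine nucleotide exchange factor, ran from 80.6 to 173 (median 120.2) at 0 h and 4.89 to 21.0 (median 7.42) at 8 h over the 6 control siRNA arrays of each time, and from 6.71 to 25.0 (median 10.3) at 0 h and 5.81 to 16.7 (median 10.7) at 8 h over the NFYB siRNA arrays, and gave 3.74 ± 0.63 (SE, adjusted p = 0.00408). Its control arrays at 0 h stood above the other groups, which had medians near one another, and its 2 other probe sets gave 0.48 (adjusted p = 0.495) and -0.15 (adjusted p = 0.985). MSI1, the RNA-binding protein Musashi, ran from 0.989 to 12.5 (median 3.74) at 0 h and 68.4 to 90.8 (median 78.5) at 8 h over the 6 control siRNA arrays of each time, and from 11.1 to 29.9 (median 22.4) at 0 h and 36.2 to 73.6 (median 58.3) at 8 h over the NFYB siRNA arrays, and gave -2.93 ± 0.56 (SE, adjusted p = 0.0134). TRPC4, a cation channel, had signals of 4.13 to 16.8 in NFYB siRNA cells at 0 h and 0.582 to 10.5 in control siRNA cells at both times, and gave -3.78 ± 0.83 (SE, adjusted p = 0.0342). These 3 were the only called probe sets in the lower 40% by mean signal, where log2 values move with small changes in signal.

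Genes that met the thresholds of the study for joint activation by E2F1 and NFYB, a rise of at least 2-fold with control siRNA and a control over NFYB siRNA ratio of at least 1.2 at 8 h at an unadjusted p under 0.05, numbered 279 probe sets for 226 genes in this fit. Their median rise was 1.63 with control and 1.09 with NFYB siRNA, and their median knockdown difference was -0.14 at 0 h and -0.52 at 8 h. The difference of responses was negative for 250 and positive for 29, and was called for 7: lower for SUCO, ADCY3 and MYBL1, and higher for PRKCZ, NSG1, CDK19 and SLCO4C1. A knockdown difference before OHT was called lower for 28 of the 279, where 2% of all probe sets were, and higher for 1, where 1.58% were. The 8 h arrays of both arms and the control arrays at 0 h chose these probe sets, so the signs and medians that use them are a description.

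The siRNAs of an arm did not act alike throughout. In a fit with 12 groups of 3 arrays, the 8 h response differed between the NFYB siRNAs for 521 probe sets (2.35%) and between the control siRNAs for 181 (0.815%), at an adjusted p under 0.05. Of the 45 probe sets called between the arms, 5 differed between the NFYB siRNAs (FAM111A, GMNN, MAF, NSG1 and TOR3A) and 1, NSG1, between the controls. The difference was greater in size with the Dharmacon NFYB siRNA for 37 of the 45; both siRNAs are set against the same control arrays and both entered the choice of the 45. For CDC25C it was 1.05 with the Ambion and 1.55 with the Dharmacon siRNA, for KLHL24 0.98 and 1.87, and for MAF 0.32 and 0.89. PRKCZ went the other way, with 1.0 and 0.68, as did MT1X with 1.71 and 1.35 and CDK19 with 1.79 and 1.48. ID2 was nearly the same with both, at 0.83 and 0.85. With the Ambion siRNA alone the fit called 2 probe sets and with the Dharmacon siRNA alone 235, and NFYB itself stood at 161 ± 38.2 and 92.2 ± 21.3 at 8 h with these siRNAs (SD, n = 3); the part of that residual level in the results was not tested.

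For 22 of the 40 called genes at least 1 other probe set naming the gene alone was measured and not called. These 33 probe sets had the sign of the called one in 26 cases and the opposite sign in 7, those of BAG1, CEBPD, MCF2L, NSG1 (2 probe sets), SFRP1 and TRPC4. CDC25C was the only gene called on more than 1 probe set.

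As a measure of RNA integrity, the log2 ratio of 3′ to 5′ probe sets of GAPDH had medians of 0.13 and 0.12 in control siRNA cells at 0 h and 8 h and of 0.04 and 0.20 in NFYB siRNA cells, and that of ACTB 1.76, 1.54, 1.89 and 1.89. Their part in the difference of responses was not tested. The count of calls also moved with the fit: 17 probe sets were called when only the 24 arrays of the 4 groups were fitted, and 3 to 8 when 1 replicate number was left out; CDC25C on its brightest probe set was called in each of these.

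**Figure D4:**
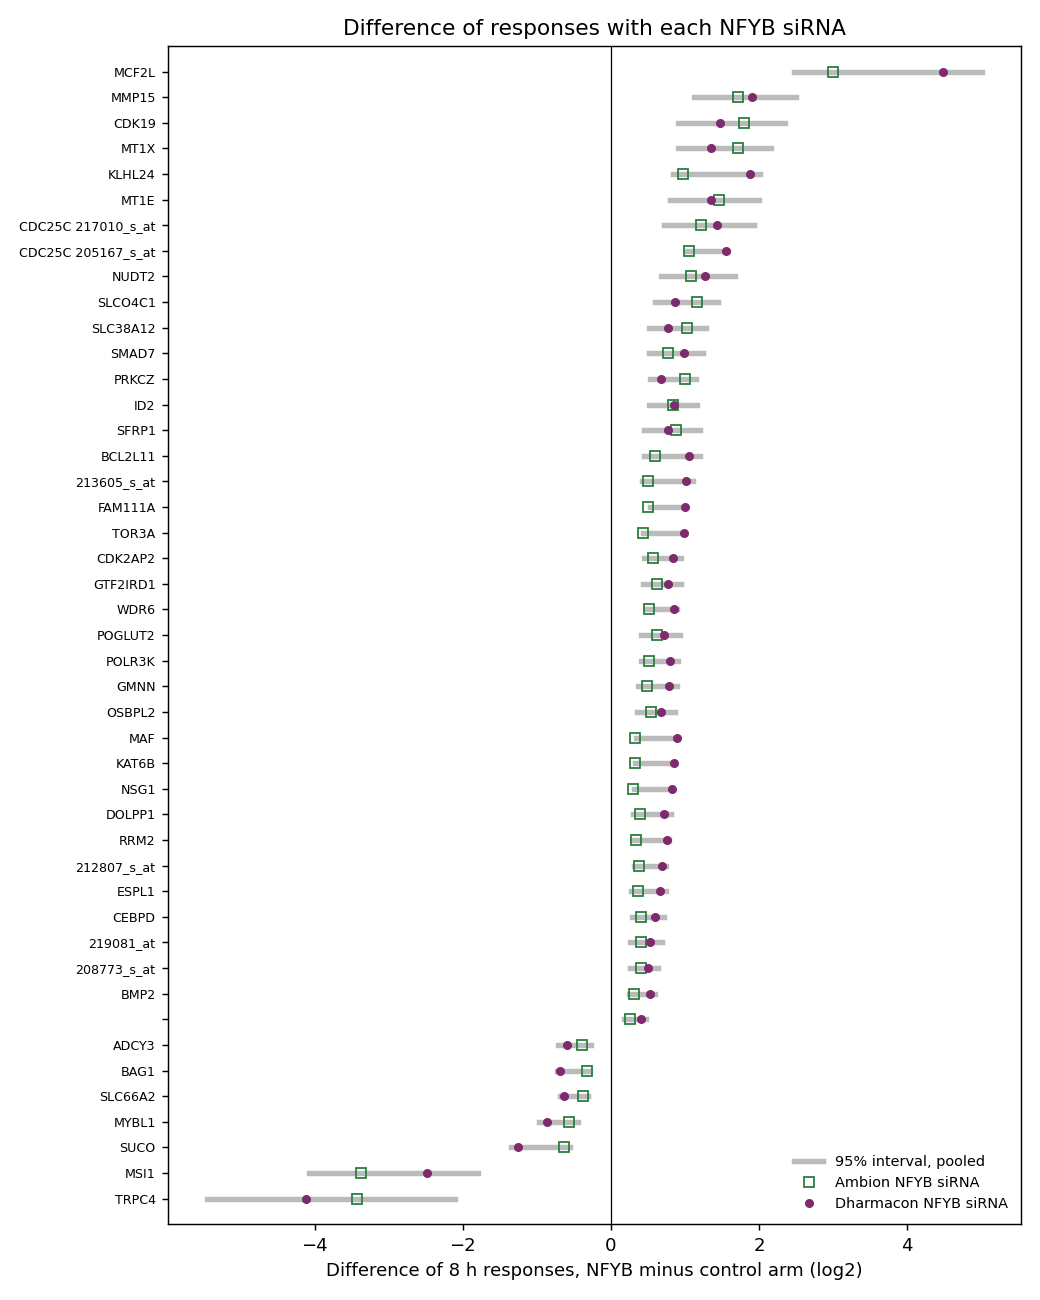
Difference of the 8 h responses (x axis, log2) of the 45 called probe sets (y axis) with the Ambion NFYB siRNA (open green squares) and the Dharmacon NFYB siRNA (purple circles), each against both control siRNAs, and the 95% interval of the pooled difference (grey bars). The Dharmacon value is farther from 0 for 37 of 45; for CDC25C on 205167_s_at the values are 1.05 and 1.55.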

How the data were processed

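The deposited values are MAS5 signal intensities of Affymetrix expression arrays, linear and not negative, which the authors computed in Affymetrix Expression Console (version not given in the sources used here) and scaled on each array to a 2% trimmed mean of 500. The scale was checked on the file. Scaling to a common mean hides any change in total RNA, and MAS5 values of dim probe sets are noisy on the log scale. Gene names are those of the platform annotation; 19064 probe sets name 1 gene, 1043 several and 2108 none.

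Log2 intensities without an offset were fitted with limma 3.58.1 (R 4.3.3) over all 36 arrays in 6 groups of arm by time, with trended moderation of the variances (36.3 degrees of freedom in all). The contrast was (NFYB siRNA 8 h minus 0 h) minus (control siRNA 8 h minus 0 h). Tests were two-sided, p was adjusted by the Benjamini-Hochberg method over 22215 probe sets, and a change was called at an adjusted p under 0.05. The fit was tested on simulated data. Named were 15 genes of the study or of NF-Y, every called probe set that names 1 gene (1 such gene is not reported here), and the up to 3 members of each list that ranked first by p. Gene lists used the brightest probe set per gene. The members and lists were chosen with earlier results of these data known. Promoter windows came from a RefSeq table (GRCh38.p14). The samples were grouped by their labels, replicates are biological by the labels, and precision is limited by 6 arrays per group. It is also limited by the siRNAs, of which each arm had 2. The main fit counted the 6 arrays of a group as independent, so its p-values do not account for the spread between siRNAs. The replicate numbers were not used to pair the samples. Deviations from the group means of arrays with the same number correlated at -0.19 to 0.29 (median 0.01) over 198 pairs. Those of arrays with different numbers correlated at -0.38 to 0.33 (median -0.003) over 396 pairs. The correlation was over 0.1 for 29 of the 198 and 39 of the 396. These values do not exclude a pairing.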

Additional observations from a re-analysis of the deposited data

Results flagged for a closer look

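The 45 probe sets whose 8 h response differed between the arms are the comparison itself. Within the arms, the test of the difference between the NFYB siRNAs (limma, 12 groups, Benjamini-Hochberg) was passed by 5 of them, with the greater response under the Dharmacon siRNA: FAM111A by 0.50 (adjusted p = 0.0245), GMNN by 0.29 (adjusted p = 0.0341), MAF by 0.57 (adjusted p = 0.00136), NSG1 by 0.53 (adjusted p = 0.00627) and TOR3A by 0.55 (adjusted p = 0.0138). For NSG1 the response also differed between the control siRNAs, Sigma minus Dharmacon, by -0.45 (adjusted p = 0.0354).

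Over 228 groups of 6 arrays, taken for the named probe sets at 0 h and 8 h, 12 held an array whose log2 gap to the nearest of the others was a larger share of the range of its group than Dixon's critical value for 6 values allows, where chance gives about 1 group in 20. Replicate 3 of the Dharmacon control siRNA at 8 h was such an array for 4 genes: MT1E (highest at 3713, next 3094, gap 0.674 of the range), NFYA (lowest at 377, next 466, gap 0.626 of the range), OSBPL2 (lowest at 358, next 404, gap 0.663 of the range) and PRKCZ (lowest at 654, next 907, gap 0.794). Without this array the difference of PRKCZ was 0.75. The others were CDC25A in replicate 3 of the Ambion NFYB siRNA at 0 h (lowest at 300.3, next 389, gap 0.779), CDK1 in replicate 1 of the Dharmacon NFYB siRNA at 0 h (lowest at 3197, next 4561, gap 0.697), CDK19 in replicate 1 of the Dharmacon NFYB siRNA at 0 h (highest at 21.9, next 8.35, gap 0.733), E2F1 in replicate 2 of the Dharmacon control siRNA at 0 h (lowest at 137, next 188, gap 0.675), MSI1 in replicate 3 of the Dharmacon NFYB siRNA at 0 h (lowest at 11.1, next 21.5, gap 0.664), MSI1 in replicate 1 of the Ambion NFYB siRNA at 8 h (lowest at 36.2, next 57.1, gap 0.642), SLC66A2 in replicate 1 of the Ambion NFYB siRNA at 8 h (highest at 1387, next 1252, gap 0.812) and SMAD7 in replicate 1 of the Ambion NFYB siRNA at 0 h (highest at 407, next 306, gap 0.728).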

How the results depend on the processing

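The 45 calls of the difference of 8 h responses became 41 with an offset of 16, 37 with quantile normalization, 49 in the upper 60% of probe sets, 34 without the trend, 41 with robust moderation and 42 with array weights. They became 17 with only the 4 groups compared, 290 with siRNA by time as 12 groups (all 45 among them), 86 with siRNA as a random block (all 45 among them), 2 with the Ambion NFYB siRNA alone (1 shared), 235 with the Dharmacon NFYB siRNA alone (36 shared), 65 and 30 against the Dharmacon and Sigma control alone (19 and 17 shared), and 4 and 15 with an unequal-variance contrast, as in the methods, on log2 and on linear signal. On linear signal the difference changed sign for PRKCZ (-65.9), NSG1 (-346), CDK19 (-18.4), SFRP1 on 202036_s_at (-13.6) and SLCO4C1 (-123). The replicate numbers mark no shared batch in the labels, and 16 of 36 arrays correlated best with their own number; with the number as a block 33 were called, and 346 with the 12 groups and the block. Without 1 replicate number 3 to 8 were called (8, 4 and 3 without the first, the second and the third), and without 1 array 22 to 46; fewest remained without replicates 2, 3 and 1 of the Dharmacon NFYB siRNA at 8 h (22, 24 and 27) and replicate 3 of the Sigma control at 8 h (29). CDC25C on 205167_s_at was called under each of these alternatives, with differences of 1.05 to 1.55. For the 4 h difference, 3 calls became 1 with the offset and 0 to 1 without 1 replicate number (at 0 calls by limma, 1060 probe sets had an unadjusted p under 0.05). Knockdown at 0 h fell from 796 to between 222 and 295 without 1 number, and at 8 h from 1032 to between 163 and 392. The difference between the control siRNAs fell from 181 to between 53 and 73; that between the NFYB siRNAs was 343 without the trend, and 20 to 824 without 1 number. The cause of these changes was not tested, and the number of arrays also differed where some were left out. The median difference of all probe sets was -0.02 as deposited, -0.01 with the offset and 0.00 after quantile normalization. Low signal limits MCF2L, MSI1, TRPC4, MMP15 and CDK19, whose differences became 2.38, -1.18, -0.77, 0.86 and 0.68 with the offset, the last 3 no longer called (adjusted p = 0.0683, 0.283 and 0.437). ESPL1, NSG1, BCL2L11 and SFRP1 were also no longer called with it (adjusted p = 0.0543 to 0.113).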
